A study of Homo sapiens with 42 samples.

Results

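RPL3 and RPL3L were taken by name as 2 of the 60606 gene rows of a TPM table, and were read beside the 6 rows of the same table that hold plasmid sequences. The table holds polyA RNA of AC16, an established human cell line described in the labels as cardiomyocyte-like, in 10 groups of 3 whole-cell libraries. By its title the series asks how RPL3L variants linked to dilated cardiomyopathy act through the ribosomes of muscle. In 8 groups the cells carried a doxycycline-inducible hairpin against RPL3 (shRPL3) and an RPL3L construct. In 7 of these groups the construct carried 1 amino acid change, for which the group is named (P291L, G27D, R161W and T189M, and further D308N, D308V and R343W). In the group RPL3L-WT it was wild type. The group shRPL3 had the hairpin and no construct, and the group shScramble a scrambled hairpin in its place. Doxycycline was given at 1 ug/ml in every group, the controls included. Hairpin cells were kept by hygromycin, and construct cells were sorted for BV421, the channel in which the blue fluorescent protein EBFP2 is read. Only the P291L titles call the variant itself inducible. The labels do not say whether replicates were separate cultures, so the p-values measure the spread between these samples, which may be technical. TPM, the share of transcripts after scaling by length, sums to 1000000 in every library and keeps no depth, so the depth of each library is unknown.

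RPL3, also called uL3, is a protein of the large ribosomal subunit that reaches toward the peptidyl transferase centre, where peptide bonds form, and it joins the subunit early in its assembly. RPL3L is its paralog. It is made mainly in heart and skeletal muscle, where it takes the place of RPL3 in a share of the ribosomes. Most other cell types use RPL3 alone. In mouse muscle, loss of RPL3L is followed by more RPL3.

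In GENCODE 29 (GRCh38), RPL3 (ENSG00000100316.15) lies at chr22:39312882-39320389 on the minus strand and has 10 exons and 403 codons. RPL3L (ENSG00000140986.7) lies at chr16:1943974-1957606 on the minus strand and has 10 exons and 407 codons. The build behind the TPM is not given in the sources used here. Aligned over 402 codons, the reference proteins had the same residue at 77.9% of codons, while 46.8% of codons and 75.5% of bases were identical. The annotated transcripts of the 2 genes share no run of 31 bases (the longest shared run has 26), so reads of such a length would be told apart. The reference codons at the 6 altered residues are shown because they are what the lines differ in. Each line gives 27 bases of the coding strand, 5′ to 3′, with the codon in capitals, first in RPL3L and then at the aligned place in RPL3. They are annotated sequence, not the sequence of the constructs.
RPL3L at the codon of G27D, exon 2, chr16:1954071-1954073: caccggcaccggGGCaaggtgaagacg
RPL3 at the codon of G27D, chr22:39318515-39318517: agcaggcatcgtGGGaaggtgaagagc
RPL3L at the codon of R161W, exon 4, chr16:1950862-1950864: tgcaaggtcattCGGgtcattgtccac
RPL3 at the codon of R161W, chr22:39316724-39316726: tgccaagtcatcCGTgtcattgcccac
RPL3L at the codon of T189M, exon 5, chr16:1947315-1947317: ctgaacggtggcACGgtggccgagaag
RPL3 at the codon of T189M, chr22:39315490-39315492: gtgaacggaggcACTgtggccgagaag
RPL3L at the codon of P291L, exon 7, chr16:1946703-1946705: atcggcaggggcCCGcacatggaggac
RPL3 at the codon of P291L, chr22:39314185-39314187: attggccagggcTACcttatcaaggac
RPL3L at the codon of D308N and D308V, exon 7, chr16:1946652-1946654: tccaccagctacGACgtgactgccaag
RPL3 at the codon of D308N and D308V, chr22:39314134-39314136: tccactgactatGACctatctgacaag
RPL3L at the codon of R343W, exon 8, chr16:1945853-1945855: ggtaccaagaagCGGgtcattacgctg
RPL3 at the codon of R343W, chr22:39313652-39313654: ggaaccaagaagCGGgtgctcaccctc
At 5 of the 6 sites the residue altered in RPL3L is the same in RPL3, and at 2 of them, those of R343W and of the D308N and D308V pair, so is the codon. Of the 6 sites, that of P291L is the one where the reference residues differ. The window of T189M is the most alike, with 24 of 27 bases shared, and that of P291L the least, with 17.

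A split into 2 kinds of library, absent from the labels, runs across these groups. Levels of 333 pseudogenes, with those of RPL3 left out, put 6 libraries apart from the other 24 along the leading axis, with a gap of 12.7 units of that axis between them against 1.83 for the next widest gap. The second kind holds RPL3L-WT replicates 1 and 2, T189M replicates 1 and 2, G27D replicate 3 and R161W replicate 1, and no shRPL3 or shScramble library. The kind moved with both members. In the 4 groups that hold both kinds, the second kind had 0.619 to 0.657 times the RPL3 of the first and 0.71 to 0.866 times the RPL3L. The median of 46 other large-subunit genes was also lower, at 0.772 to 0.838 times. The fits of RPL3 and RPL3L are therefore given pooled and with library kind as a term. The 7 fibroblast and smooth muscle markers summed to 4096 to 6183 TPM, of which VIM alone gave 2158 to 3623 TPM and ACTA2 2.71 to 15.4 TPM. Of 13 cardiomyocyte markers, 10 were below 1 TPM in every library, TNNT2, MYH6 and MYH7 among them. The summed level of the 13 was 2.36 to 6.81 TPM, with GATA4 at 0.823 to 4.94 TPM. The defining markers of cardiomyocytes are thus absent or nearly so.

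RPL3 was lower in cells with its hairpin. RPL3 was 539, 499.6 and 569.8 TPM in the shRPL3 libraries, against 1565, 1534 and 1611 TPM in the shScramble libraries. The groups did not overlap, and shRPL3 held 34.1% of the shScramble mean (536 ± 35.2 against 1570.2 ± 38.8 TPM, SD, n = 3 each). Of all genes tested, 27.7% had every shRPL3 library below every shScramble library. limma on log2(TPM + 1), with Benjamini-Hochberg adjustment over 14426 genes, put shRPL3 at -1.55 against shScramble on the log2 scale (SE 0.184, adjusted p = 6.22e-07), in a comparison where 18% of genes were called lower. It was the 119th most lowered of the 14426 genes. Fewer cells making a message and less of it per cell cannot be told apart in these bulk samples.

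Among the large-subunit genes RPL3 was at the bottom in shRPL3 and near the middle in shScramble. Ranked by TPM among 47 such genes, RPL3 itself included, it was 46th or 47th in the shRPL3 libraries and 22nd to 26th in the shScramble libraries. It had 0.256 to 0.286 times the median of the other 46 in shRPL3, against 0.957 to 1.07 times in shScramble.

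Most construct lines kept a low RPL3. In P291L it was 679, 685 and 658 TPM, in D308N 680.1, 714 and 691 TPM, and in R343W 729, 737 and 724 TPM. In D308V it was 571, 568 and 569.7 TPM. These 12 libraries, all of the first kind, were far below the 1534 to 1611 TPM of shScramble, and the D308V values lay at the upper end of the shRPL3 range. G27D had 723 and 727 TPM in its first-kind libraries and 449 TPM in replicate 3. RPL3L-WT had 673 TPM in its first-kind library, replicate 3, and 445 and 439 TPM in replicates 1 and 2. The spread within G27D and RPL3L-WT thus ran with the library kind.

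R161W and T189M stood apart, with RPL3 near or approaching shScramble although both carry the RPL3 hairpin. R161W had 1686 and 1570.1 TPM in its first-kind libraries and 1059 TPM in replicate 1, which is of the second kind. The first-kind values fell among or above those of shScramble, 104% of its mean. T189M had 1246 TPM in its first-kind library and 779.7 and 802 TPM in the 2 second-kind libraries. All 3 T189M libraries were below every shScramble library and above every shRPL3 library, and the first-kind one held 79.3% of the shScramble mean. The share of all genes for which T189M lay between the 2 groups in this way was not counted. Within the second kind the same order held, with 1059 TPM in R161W, 779.7 and 802 TPM in T189M, and 439 to 449 TPM in RPL3L-WT and G27D.

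**Figure D1:**
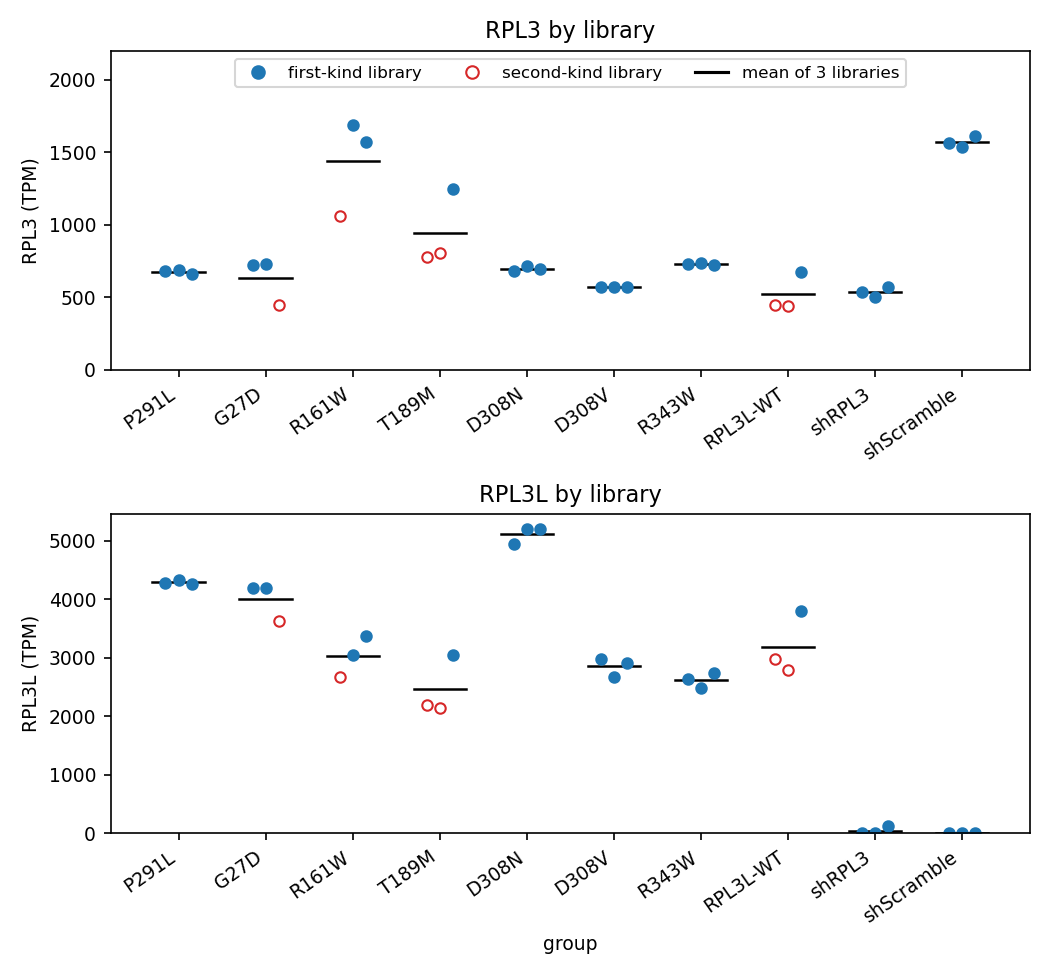
RPL3 (upper plot) and RPL3L (lower plot) in TPM on linear axes for each of 3 libraries in 10 groups, with filled blue points for the first library kind, open red points for the second, and a line at the mean of the 3. RPL3 reaches 1686 TPM in R161W against 439 to 737 TPM in the construct libraries other than R161W and T189M, and RPL3L runs from 2145 to 5198 TPM in the construct lines.

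Against shScramble, RPL3 was called lower in 8 of 9 groups, R161W being the exception. The pooled log2 fold change (SE 0.184 in each) was -1.22 in P291L (adjusted p = 1.46e-05), where 25.2% of all genes were called lower and 33.3% with the kind term. It was -1.34 in G27D (adjusted p = 2.92e-06, beside 30.3 and 32.9% of genes) and -0.77 in T189M (adjusted p = 0.00217, beside 28.5 and 21.7%). The fall in T189M was thus shallower than in the other lines called. It was -1.17 in D308N (adjusted p = 1.24e-05, beside 27.3 and 33.7%), -1.46 in D308V (adjusted p = 6.65e-07, beside 27.9 and 34.4%) and -1.1 in R343W (adjusted p = 3.72e-05, beside 24.5 and 31.5%). RPL3L-WT gave -1.62 (adjusted p = 2.88e-07, beside 34.6 and 29.1%), about the value of shRPL3, for which 24.5% of genes were called lower with the kind term. For R161W it was -0.15 (adjusted p = 0.583, beside 16.3 and 20.4%), a difference smaller than its standard error. Of the 7 fibroblast and smooth muscle markers, 4 were called higher in R161W than in shScramble, beside 7.54% of all genes. They were COL1A1 (1.15), TAGLN (0.74), ACTA2 (0.71) and COL1A2 (0.23). VIM was called lower (-0.5), beside 16.3% of genes. The part of these 7 markers in the RPL3 level was not tested.

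With library kind as a term the standard errors fell to between 0.0357 and 0.04, the same 8 groups were called lower, and the 4 groups of mixed kind moved up. G27D became -1.13, T189M -0.34 (adjusted p = 4.18e-07), RPL3L-WT -1.2, and R161W turned to 0.06 (adjusted p = 0.226). In first-kind libraries alone R161W was at 0.05 (adjusted p = 0.384).

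**Figure D2:**
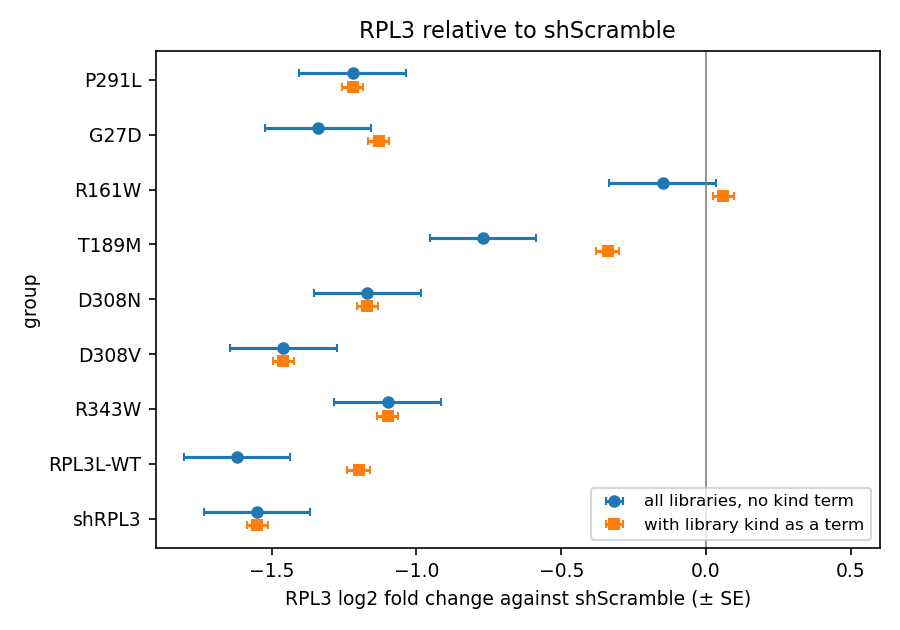
RPL3 log2 fold change against shScramble (x axis, bars ± SE) for the 9 other groups, in the fit without (blue circles) and with (orange squares) library kind as a term. R161W sits at -0.15 and 0.06, T189M at -0.77 and -0.34, and the other groups between -1.62 and -1.1.

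Set against shRPL3, which carries the same hairpin and no construct, the lines split into those called higher for RPL3 pooled and those called only with the kind term. On the log2 scale R161W was 1.4 higher (adjusted p = 7.5e-06) and T189M 0.78 higher (adjusted p = 0.00272), in comparisons where 8.36 and 8.42% of genes were called higher. Once kind was a term they were 1.61 and 1.21 higher, beside 14.3 and 10.8% of genes. These 2 of 8 lines were the pooled calls. The other six missed the threshold, at 0.33 in P291L (beside 4.67% of genes called higher), 0.21 in G27D (2.41%), 0.38 in D308N (5.73%), 0.09 in D308V (5.19%), 0.45 in R343W (7.22%) and -0.07 in RPL3L-WT (5.77%). Of these, 5 passed with the kind term. They were P291L at 0.33 (adjusted p = 1.58e-07, beside 8.52% of genes), G27D at 0.42 (1.38e-08, 5.02%), D308N at 0.38 (1.73e-08, 11.2%), R343W at 0.45 (7.41e-10, 12.7%) and RPL3L-WT at 0.36 (7.24e-07, 6.27%). D308V did not, at 0.09 (adjusted p = 0.0598, beside 9.67%). The sign for RPL3L-WT, 2 of whose 3 libraries are of the second kind, turned with the term. Scaling each library by its large-subunit genes, which were higher in shRPL3, also turned it, to 0.28 (adjusted p = 0.0454).

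Against RPL3L-WT, RPL3 was 1.47 higher on the log2 scale in R161W (adjusted p = 9.76e-06, beside 12.6% of genes called higher), 0.85 higher in T189M (0.016, 1.39%) and 0.52 higher in R343W (0.0332, 24.5%). Given the kind term, R161W was 1.25 higher (beside 16.1% of genes) and T189M 0.85 (beside 7.51%), while R343W was at 0.09 (adjusted p = 0.0843). D308V was then called lower, at -0.27 (adjusted p = 1.82e-05, beside 12.7% of genes), though it was at 0.16 pooled. RPL3L-WT and T189M both mix the kinds, and leaving out RPL3L-WT replicate 1 or 2, or T189M replicate 3, ended the T189M call, with limma adjusted p of 0.0867, 0.0962 and 0.0766. The R343W call was likewise lost without RPL3L-WT replicate 1 (0.142) or 2 (0.155), or without any R343W library (0.0691 to 0.0754). Fits on the 2 groups alone ended the calls of R161W (limma adjusted p = 0.106), T189M (0.834) and R343W (0.0694) against RPL3L-WT. With no filter on low values the T189M calls were lost against shScramble (0.139), shRPL3 (0.224) and RPL3L-WT (0.444). R161W and T189M also differed from each other, with T189M against R161W at -0.62 (adjusted p = 0.0448) and at -0.4 (4.16e-08) with the kind term. D308N and D308V change the same residue, and RPL3 was 0.29 higher in D308N than in D308V, which was not called pooled (adjusted p = 0.603) but was with the kind term (1.08e-05, beside 4.07% of genes) and in first-kind libraries (0.000114).

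Ordered by mean RPL3, the groups ran shScramble (1570.2 TPM), R161W (1438), T189M (942), R343W (730.2), D308N (695), P291L (674), G27D (633), D308V (569), shRPL3 (536) and RPL3L-WT (519). Of the 9 pairs of neighbours in that order, R161W and T189M alone passed the threshold pooled. In the fit with kind, T189M and R343W (adjusted p = 4.71e-13), G27D and D308V (4.81e-07) and shRPL3 and RPL3L-WT (7.24e-07, with RPL3L-WT the higher) passed as well. Neighbours among R343W, D308N, P291L and G27D did not pass in either fit, though R343W and D308N did not overlap. P291L against G27D turned from 0.13 pooled to -0.09 with the kind term.

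RPL3L was close to 0 without a construct, apart from 1 library. It was 0.029 and 0.0353 TPM in shRPL3 replicates 1 and 2, against 0, 0.0571 and 0.0317 TPM in shScramble. shRPL3 replicate 3 had 121 TPM, and with it 434 TPM of the EBFP2 row and 428 TPM of the rtTA3 row. Those are 3.29, 3.36 and 3.34% of the means of the 18 first-kind construct libraries. Its RPL3 of 569.8 TPM was close to the 539 and 499.6 TPM of the other 2, and without it RPL3 in shRPL3 was -1.6 against shScramble.

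In the construct lines RPL3L was among the most abundant messages, 13th to 53rd of all genes, whereas RPL3 was 83rd to 91st in shScramble. D308N had most, at 4951, 5198 and 5198 TPM, followed by P291L at 4285, 4338 and 4263 TPM. G27D had 4189 and 4188 TPM and, in its second-kind library, 3627 TPM. D308N did not overlap any other line. R161W had 3048 and 3373 TPM and 2672 TPM in its second-kind library. T189M had 3055 TPM in its first-kind library and 2190.3 and 2145 TPM in the other two. D308V had 2984, 2667 and 2911 TPM, R343W 2634, 2492 and 2741 TPM, and RPL3L-WT 3798 TPM in its first-kind library against 2982 and 2791 TPM in the second. The 2 lines with most RPL3, R161W and T189M, thus had neither the most nor the least RPL3L among first-kind libraries.

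Tested on the 24 construct libraries, RPL3L was 0.69 higher in D308N than in RPL3L-WT (SE 0.125, adjusted p = 0.000507, beside 21% of genes called higher). No other variant passed pooled, with values from -0.38 in T189M and -0.27 in R343W, through -0.15 in D308V and -0.07 in R161W, to 0.34 in G27D and 0.44 in P291L. D308N was 0.84 above D308V, the other change at the same residue (adjusted p = 0.00111), where 0.582% of genes were called higher. The difference was again 0.84 with the kind term (adjusted p = 8.19e-09, beside 3.95% of genes). The term also gave calls for G27D at 0.22 (adjusted p = 0.0125, beside 4.3%) and D308N at 0.47 (6.77e-06, 17.4%). It gave lower calls for R161W at -0.18 (0.0216, 8.75%), T189M at -0.38 (0.000214, 3.02%), D308V at -0.38 (8.53e-05, 12.7%) and R343W at -0.5 (3.18e-06, 12.5%). P291L stayed short of the threshold at 0.22 (adjusted p = 0.0723). The D308N calls were lost when no genes were filtered (adjusted p = 0.13 against RPL3L-WT and 0.066 against D308V) and in a fit over all 10 groups (0.619 and 0.872).

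In order of mean RPL3L the lines ran D308N (5116 TPM), P291L (4295), G27D (4002), RPL3L-WT (3190.0), R161W (3031), D308V (2854), R343W (2622) and T189M (2463). No pair of neighbours in that order differed past the threshold pooled. With the kind term D308N exceeded P291L (adjusted p = 0.00103), G27D exceeded RPL3L-WT, RPL3L-WT exceeded R161W and R161W exceeded D308V (0.00611). The last place of T189M was not kept. R343W against T189M turned from 0.11 to -0.12 with the term (adjusted p = 0.127), and T189M had 3055 TPM in its first-kind library. P291L against G27D also turned, from 0.11 to -0.01.

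Together the 2 messages exceeded the RPL3 of shScramble in every construct library. RPL3 plus RPL3L averaged 4969 ± 51.1 TPM in P291L, 4635 ± 484 in G27D, 4469.6 ± 648 in R161W and 3406 ± 775 in T189M. It averaged 5811 ± 156 TPM in D308N, 3423 ± 168 in D308V, 3352 ± 118 in R343W and 3709 ± 667 in RPL3L-WT (SD, n = 3 each), against 577 ± 101 TPM in shRPL3 and 1570.2 ± 38.8 TPM in shScramble. The lines thus held 2.13 times (R343W) to 3.7 times (D308N) the shScramble sum, and shRPL3 0.367 times. These folds depend on the length behind the RPL3L TPM. If the construct held the coding bases of RPL3L and no more, they would be 3.4 times (T189M) to 6.27 times (D308N). The exact two-sided permutation p was 0.1 for each of these against shScramble, and for each construct line against shRPL3, which is the smallest that 3 against 3 allows. RPL3L alone, at 2145 to 5198 TPM in construct libraries, exceeded the sums of both controls. For the construct lines this p therefore adds nothing beyond the presence of the construct. Relative to the median of the other large-subunit genes the sum was 1.64 to 3.02 times in construct libraries, so the excess held on that scale too. Against RPL3L-WT the sums of D308N and P291L did not overlap those of RPL3L-WT (exact p 0.1 each), and the other five overlapped them.

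**Figure D3:**
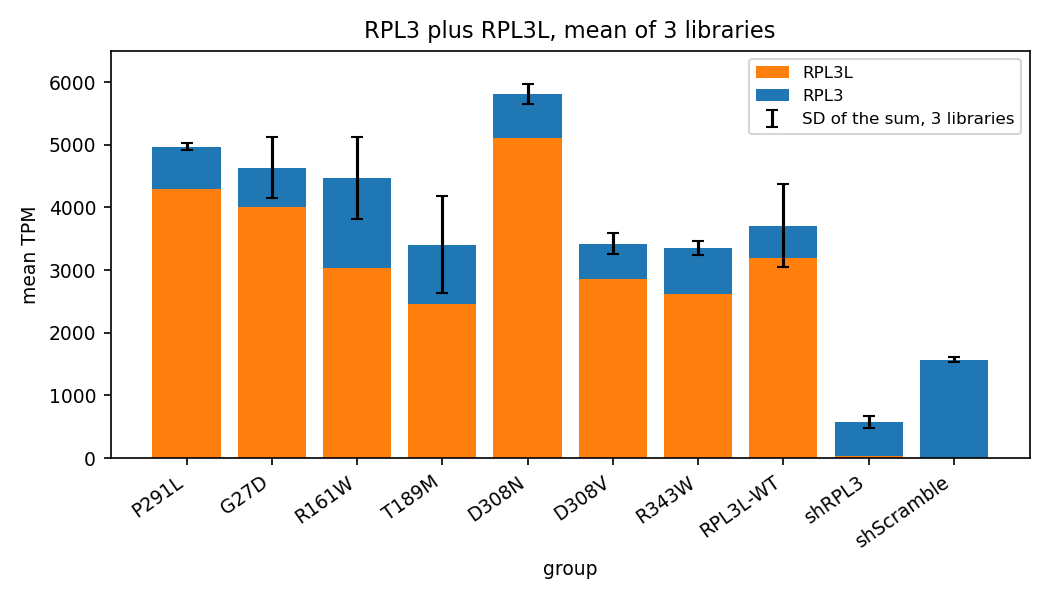
Mean TPM of RPL3L (orange) and RPL3 (blue) stacked for 10 groups, with bars for the SD of their sum over 3 libraries. Each of the 8 construct groups stands above shScramble (1570.2 TPM), and the blue part is tallest in shScramble and R161W.

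RPL3L made up most of the sum in every construct line, and least in R161W and T189M. Its share was 86.4 ± 0.168% in P291L, 86.5 ± 2.16% in G27D, 68.1 ± 3.62% in R161W and 72.5 ± 1.38% in T189M. It was 88 ± 0.198% in D308N, 83.3 ± 0.793% in D308V and 78.2 ± 0.973% in R343W, against 86.1 ± 1.06% in RPL3L-WT (SD, n = 3 each). The share minus that of RPL3L-WT was -18 percentage points in R161W, -13.6 in T189M, -7.92 in R343W, -2.78 in D308V and 1.92 in D308N, with no overlap of libraries (exact p 0.1, the smallest possible). P291L and G27D overlapped RPL3L-WT. As a ratio, RPL3L over RPL3 was 1.81 to 2.52 in R161W and 2.45 to 2.81 in T189M, against 5.64 to 6.7 in RPL3L-WT. The ratio also ran with the library kind, second-kind libraries having 1.16 times that of the first kind in RPL3L-WT, 1.4 times in G27D, 1.28 times in R161W and 1.12 times in T189M. The share was 89% in the second-kind G27D library against 85.2% in the first kind, and 71.6% against 66.3% in R161W. In first-kind libraries alone the difference from RPL3L-WT was -18.6 points in R161W and -13.9 in T189M, but -1.6 in D308V, 3.1 in D308N and 1.5 in P291L, with 1 RPL3L-WT library left. What stretch of RPL3L the construct holds is not given in the sources used here. If it were the 1221 coding bases of the 2182-base annotated transcript, RPL3L would be understated, and the shares would run from 79.2% in R161W to 92.9% in D308N with the same lowest and highest lines.

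No relation between RPL3 and the amount of RPL3L was detected across the lines. Over the 8 line means Pearson's r was -0.27 (exact permutation p = 0.541, 0.779 adjusted over 3 relations) and Spearman's rho -0.33 (exact p = 0.428, adjusted 0.501). Without D308N and P291L, the lines farthest from the median RPL3L, r was -0.23. Over first-kind libraries alone it was -0.30 (exact p = 0.481, adjusted 0.66). RPL3 with EBFP2 gave r of -0.13 (exact p = 0.779, adjusted 0.779) and rho of -0.29 (exact p = 0.501, adjusted 0.501), with r of -0.65 without R343W and D308V.

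RPL3L went with the marker on its own plasmid. EBFP2 was 16810.3 to 18750.4 TPM in D308N, the line with most RPL3L, and 8373 to 9304 TPM in R343W. G27D had 14543 and 15060.5 TPM in its first-kind libraries and 19655 TPM in its second-kind library. Over the 8 line means, r between EBFP2 and RPL3L was 0.80 (exact permutation p = 0.0177, adjusted 0.0532), with rho of 0.86 (exact p = 0.0107, adjusted 0.0321). It was 0.85 without R343W and D308V, the lines farthest from the median EBFP2. Over first-kind libraries r was 0.99 (exact p = 2.48e-05, adjusted 7.44e-05). The 2 kinds lay on different slopes. RPL3L was 0.251 to 0.314 times EBFP2 in the 18 first-kind construct libraries and 0.157 to 0.185 times in the 6 second-kind ones, without overlap. The second kind had more EBFP2 (1.22 to 1.34 times the first within a group) and less rtTA3 (0.837 to 0.923 times), the transactivator on the same plasmid. Within the first kind the ratio to EBFP2 hardly varied between lines, from 0.264 in R161W to 0.302 in R343W. Pooled, exact p for each variant against RPL3L-WT was 0.1 to 0.9, with R343W the one without overlap.

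**Figure D4:**
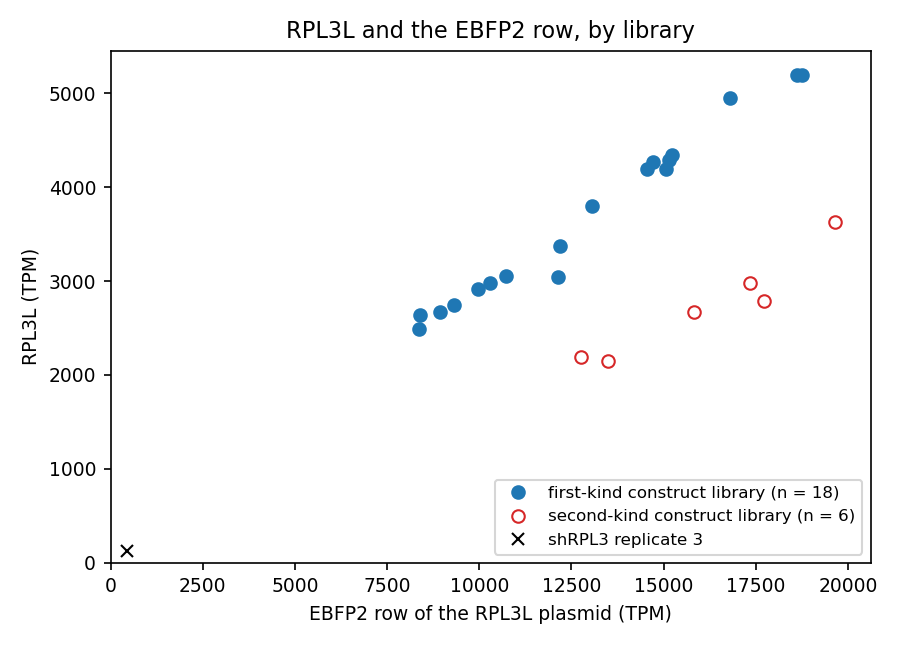
RPL3L (y axis, TPM) against the EBFP2 row of its plasmid (x axis, TPM) for 24 construct libraries and shRPL3 replicate 3, both axes linear. The 18 first-kind libraries (filled) and the 6 second-kind libraries (open) follow 2 slopes, 0.251 to 0.314 and 0.157 to 0.185, and shRPL3 replicate 3 lies near the origin at 434 and 121 TPM.

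The TetR row of the hairpin plasmid was within the range of the other construct lines in R161W, and its other 2 rows were so in the first-kind libraries. TetR, the Tet repressor, was 954, 845 and 890.5 TPM in R161W and 924 to 1045 TPM in T189M, and ran from 690.2 TPM in R343W to 1125 TPM in RPL3L-WT over all construct libraries. It was 431 to 468 TPM in shRPL3, against 1284 to 1326 TPM in shScramble. The HygR row, the hygromycin resistance gene, was 631 and 639 TPM in first-kind R161W libraries and 283 to 348 TPM in shRPL3, against 848 to 1039 TPM in shScramble. R161W replicate 1, of the second kind, had 298 TPM, the lowest of the 24 construct libraries, and T189M replicates 1 and 2 had 302 and 313 TPM, so these 3 lay inside the shRPL3 range. The IRES row was 405 TPM in R161W replicate 1, again the lowest, and up to 703 TPM in the other construct libraries. It was 259 to 284 TPM in shRPL3, against 829 to 875 TPM in shScramble. TetR and IRES in each of the 24 construct libraries thus lay above those of shRPL3 and below those of shScramble, while HygR did not in all of them. HygR over TetR was 0.299 to 0.388 in the second kind and 0.604 to 0.847 in the first. The row for the hairpin stretch was 0 in all shScramble libraries, 5.63 to 10.4 TPM in shRPL3, 11.8 to 15.4 TPM in R161W and 0 to 57 TPM over the construct libraries. PolyA libraries do not measure the processed hairpin, and the part of these rows in the RPL3 levels was not tested.

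**Figure D5:**
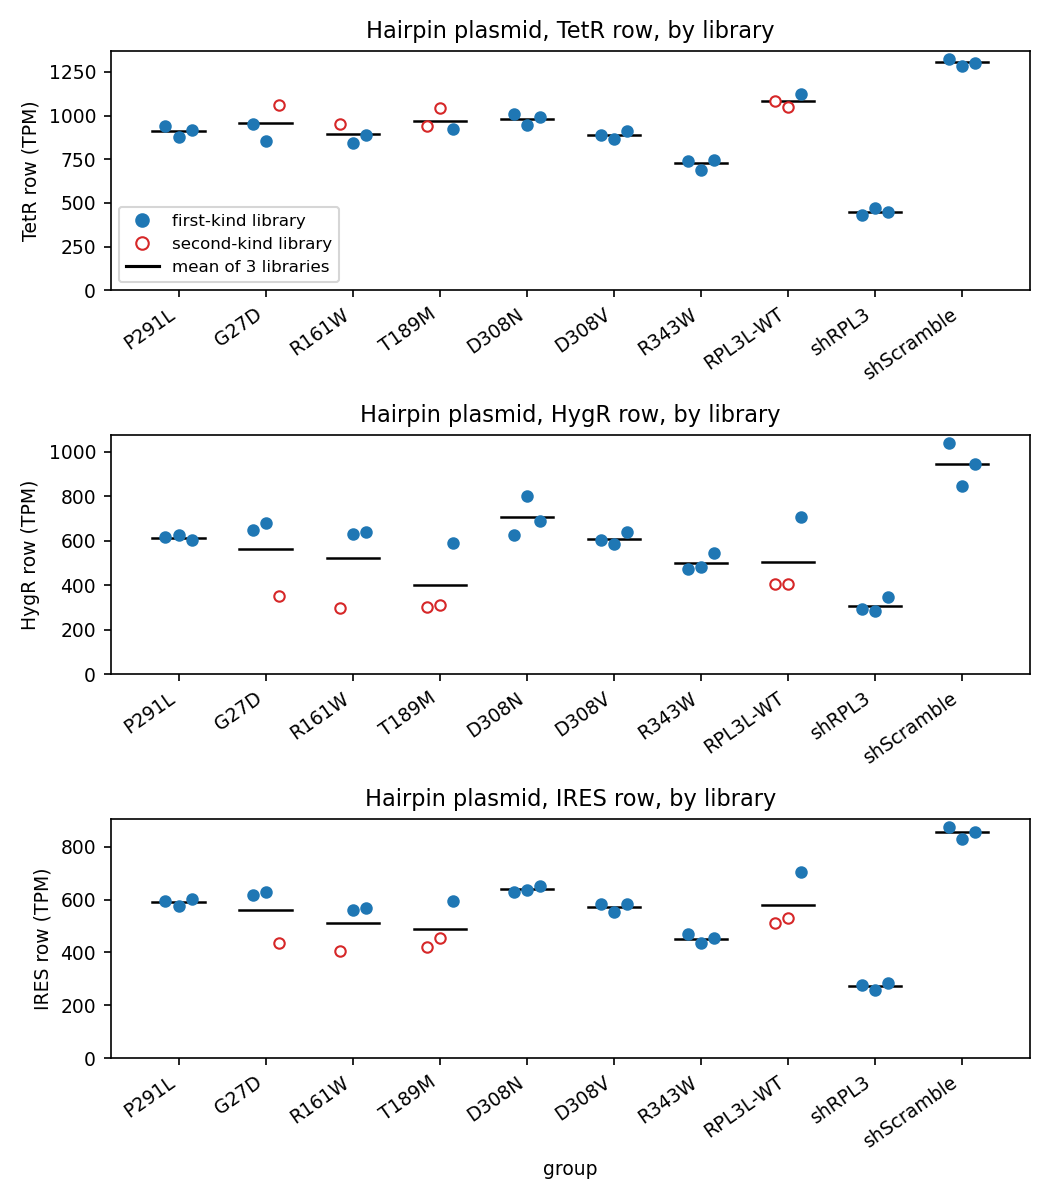
TetR, HygR and IRES rows of the hairpin plasmid (TPM, linear axes from 0) for each library of 10 groups, with filled points for the first library kind, open points for the second and lines at the mean. shRPL3 is lowest for TetR (431 to 468 TPM), shScramble highest (1284 to 1326 TPM), and R161W (845 to 954 TPM) lies among the other construct lines.

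Of 13 RPL3 pseudogenes, 12 were below 1 TPM in every library, and 8 were at 0 throughout. RPL3P4, a processed pseudogene of 423 bases at chr14:98972879-98973301, shares 84.2% of its 31-base runs with RPL3. It was 65.4 to 211 TPM in the 6 second-kind libraries and 0 to 3.86 TPM in the other 24. Its TPM came to 8.38 to 22.1% of that of RPL3 in the second kind, on annotated transcripts of 423 and 1442 bases. Whether reads of the 2 were split there was not tested. Adding it to RPL3 weighted by length gave 1121 TPM in R161W replicate 1 (1059 without it) and 463 and 468 TPM in RPL3L-WT replicates 2 and 1 (439 and 445 without it). First-kind libraries had 1686 and 1570.1 TPM in R161W and 673 TPM in RPL3L-WT. The addition changed no call of RPL3 in the 25 comparisons against shScramble, shRPL3 and RPL3L-WT and of D308N with D308V. Among other pairs of lines, D308N against T189M was then called (-0.44, adjusted p = 0.0401, against 0.087 without the addition). Of the 3 small nucleolar RNA genes inside the RPL3 span, SNORD83A was 0.93 in shRPL3 against shScramble and missed the threshold (adjusted p = 0.0612), and SNORD43 was at -0.08. SNORD83B was 0 outside shRPL3 replicate 1 (1.17 TPM). Strand use in counting is not stated, and short RNAs are poorly held by polyA selection.

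Other large-subunit genes were higher in shRPL3. In shRPL3 against shScramble, 25 of 46 were called higher and RPL12 lower, where 17.2% of all genes were called higher, and their median log2 fold change was 0.39 beside -0.01 over all genes. With the kind term 42 were higher, beside 24.4% of genes, and 26 after median-ratio scaling. RPL24 averaged 2552 ± 48.3 TPM in shRPL3 and 1512 ± 44.9 TPM in shScramble (log2 fold change 0.76, adjusted p = 1.95e-08). RPL27 (0.64), RPL36 (0.62) and RPL35 (0.6) followed. In R161W against shScramble 2 of the 46 were higher, RPL24 and RPL35, where 7.54% of genes were, and RPL12 was lower. In R161W against shRPL3 23 of 46 were lower, where 16.9% of genes were, and 40 with the kind term, beside 21.8%. In T189M against shRPL3 it was 38 in either fit, beside 25.5 and 18.6% of genes. RPL3L-WT also had 33 lower than shRPL3 (29 with the kind term), beside 30.2 and 20.1% of genes, but 11 after median-ratio scaling, which moved the median of all genes there from -0.19 to 0. The same scaling left 21 lower in R161W and 35 in T189M. The share of all genes called after median-ratio scaling was not counted, so the counts under it have no background to be read against. These comparisons share the shRPL3 libraries.

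Among 6 tested genes for other ribosomal protein paralogs, RPL26L1 (149 ± 16.3 TPM in shRPL3, 86.2 ± 3.73 TPM in shScramble, log2 fold change 0.78, adjusted p = 4.16e-09) and RPL7L1 (0.54, 1.66e-06) rose in shRPL3 and RPL39L fell (-0.47, 0.00137). Of all genes tested, 17.2% were called higher in this comparison and 18% lower. RPL22L1 (0.00), RPL36AL (0.17) and RPS27L (0.49, adjusted p = 0.0964) did not pass pooled, RPL36AL and RPS27L passing with the kind term (0.0011 and 5.48e-08, beside 24.4% of genes called higher), and RPL10L was listed at 0 in every library. In R161W RPL26L1 was between both, at 119.9 ± 5.01 TPM, called below shRPL3 (-0.31, adjusted p = 0.00153, beside 16.9% of genes called lower) and above shScramble (0.47, 1.83e-05, beside 7.54% called higher).

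The 2 genes whose products handle RPL3 itself were higher in shRPL3. GRWD1, whose yeast counterpart is a chaperone of newly made Rpl3, was 63.6, 57.5 and 63.6 TPM in shRPL3, against 44.3, 38.8 and 40.7 TPM in shScramble (log2 fold change 0.57, adjusted p = 0.00047). METTL18, which methylates a histidine of RPL3, was 17.7, 14.8 and 14 TPM in shRPL3, against 6.45, 9.03 and 8.57 TPM in shScramble (0.88, adjusted p = 0.00249). Neither pair of groups overlapped, but the share of all genes that separated in this direction was not counted. Of all genes tested, 17.2% were called higher in shRPL3 than in shScramble. In R161W GRWD1 was called below shRPL3 (-0.34, adjusted p = 0.0312, and -0.23, 0.0093 with the kind term), beside 16.9 and 21.8% of genes called lower. GRWD1 in T189M (54.1 ± 7 TPM) and RPL3L-WT (50.9 ± 7.81 TPM) was not called, and the second-kind libraries were the lower ones in both. METTL18 was called below shRPL3 pooled in T189M (-0.79, adjusted p = 0.00698, beside 25.5% of genes called lower) and in RPL3L-WT (-0.73, 0.0125, beside 30.2%). These became -0.35 (adjusted p = 0.032) in T189M and -0.29 (0.0894) in RPL3L-WT with the kind term, under which P291L (-0.37), R161W (-0.34) and R343W (-0.31) were called too. With the term 18.6% of genes were called lower in T189M, 20.1% in RPL3L-WT and 21.8% in R161W. The shares for P291L and R343W were not counted. A lower METTL18 was thus not limited to the 2 lines with most RPL3. Other lines had means above shRPL3. GRWD1 was 74.9 ± 6.54 TPM in D308N, 76.1 ± 3.35 in D308V, 68.5 ± 5.71 in R343W and 66 ± 4.06 in P291L, against 61.5 ± 3.52 in shRPL3. METTL18 was 18.5 ± 2.35 TPM in D308N and 17.7 ± 2.12 in D308V, against 15.5 ± 1.95 in shRPL3.

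RRS1 and RPF2, which load the 5S ribonucleoprotein onto the early large subunit, were higher in shRPL3 than in shScramble, and the construct lines differed from shRPL3 in both directions. RRS1 was 85.2, 81.1 and 87.9 TPM in shRPL3, against 38.5, 33.3 and 37.1 TPM in shScramble (log2 fold change 1.2, adjusted p = 4.44e-13), and RPF2 gave 1.24 (7.37e-08). Of all genes tested, 17.2% were called higher there. RRS1 was 48.5, 46.4 and 44.9 TPM in R161W and 58.7, 57.2 and 62 TPM in T189M. Against shRPL3, R161W was at -0.85 for RRS1 (adjusted p = 7.8e-10) and -0.76 for RPF2 (0.000114), and T189M at -0.51 (1.67e-06) and -0.42 (0.014). In these comparisons 16.9% of genes were called lower in R161W and 25.5% in T189M. RRS1 was also called below shRPL3 in P291L (69.6 ± 1.73 TPM, -0.28, adjusted p = 0.00165) and RPL3L-WT (74.9 ± 3.93 TPM, -0.18, 0.0252), and RPF2 in P291L (71 ± 2.87 TPM, -0.42, 0.0238) and R343W (71.4 ± 2.7 TPM, -0.41, 0.0259). In RPL3L-WT 30.2% of all genes were called lower than in shRPL3, and the shares for P291L and R343W were not counted. The RPF2 means of P291L and R343W were close to that of T189M (71 ± 9.81 TPM), which mixes the kinds. T189M had 61.8 TPM in its first-kind library and 81.3 and 70.1 TPM in the others. P291L had 67.9 to 73.6 TPM and R343W 69.5 to 74.5 TPM, all in first-kind libraries. All these calls held with the kind term, under which RPF2 in RPL3L-WT was called as well (-0.45, beside 20.1% of genes called lower). RRS1 in R161W was still called above shScramble (0.35, adjusted p = 0.00013, beside 7.54% of genes called higher), although RPL3 was not called different. RRS1 was called above shRPL3 in D308N (0.28), D308V (0.33) and R343W (0.2), where it was 103 ± 5.55, 107 ± 4.01 and 97.6 ± 3.39 TPM, against 84.7 ± 3.42 TPM in shRPL3 (SD, n = 3 each). Of all genes, 5.73, 5.19 and 7.22% were called higher in those lines.

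Of the other 5S and p53 genes, RPL5 was higher in shRPL3 (0.42, adjusted p = 7.38e-06) and RPL11 was at 0.07 (0.84). The p53 target CDKN1A was lower in shRPL3 (94.6 ± 5.31 TPM, against 128 ± 6.17 TPM in shScramble, -0.43, adjusted p = 0.00594), and MDM2, which turns p53 over, was at 0.02. CDKN1A in R161W was 107, 149.6 and 143 TPM, above shRPL3 by 0.47 (adjusted p = 0.00471, beside 8.36% of genes called higher). The R161W library with 107 TPM is of the second kind. In T189M, the other line with a raised RPL3, CDKN1A was 87.3 ± 12.4 TPM and not called (-0.12). T189M had 101 TPM in its first-kind library and 77.3 and 83.3 TPM in the others, against 90 to 100.4 TPM in shRPL3. D308N, with low RPL3, was called above shRPL3 (127 ± 4.48 TPM, 0.43, adjusted p = 0.013, beside 5.73% of genes called higher). R343W had 115 ± 6.5 TPM (0.28, adjusted p = 0.109, and 0.000185 with the kind term, beside 7.22 and 12.7% of genes called higher). Of the 7 fibroblast and smooth muscle markers, COL1A1 was called higher in shRPL3 than in shScramble (0.93), beside 17.2% of all genes. COL1A2, VIM, ACTA2 and THY1 were called lower (-0.65 to -0.29), beside 18% of genes. TAGLN (0.33) and PDGFRB (-0.22) did not pass, TAGLN passing with the kind term, where 24.4% of genes were called higher. The part of these 7 markers in the results of this comparison was not tested.

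By the likeness of group means over the 10 groups in first-kind libraries, among 1766 protein-coding genes whose means spanned at least 1 on the log2 scale, the genes closest to RPL3 were PBXIP1 (r = 0.956), ABTB1 (0.948), RAET1G (0.943), KATNAL2 (0.935) and HMSD (0.934). PBXIP1 was 38.6, 55.7 and 56 TPM in R161W and 24.9, 25.1 and 27.7 TPM in shRPL3, against 59.1, 56 and 62.6 TPM in shScramble. The most opposite were PIGW (-0.923), PAK1IP1 (-0.907) and S1PR1 (-0.907). PAK1IP1, a nucleolar factor of large-subunit assembly, was 58.8, 64.2 and 60 TPM in R161W and 110.4, 113 and 99.3 TPM in shRPL3, against 48.6, 55.8 and 57.7 TPM in shScramble. Over all 30 libraries PBXIP1 was 2nd most alike and PAK1IP1 the 9th most opposite of 2009 genes. For RPL3L, over the 8 construct lines and 5482 genes that spanned at least 0.5, the closest were DMD (0.930), CEP19 (0.895), AFAP1L2 (0.890), RBKS (0.883) and UNC13D (0.869), and the most opposite MT1E (-0.925), FST (-0.924) and UXS1 (-0.919). DMD fell to place 81 and CEP19 to place 831 of 6398 when both kinds were used, and AFAP1L2 was at place 6. These correlations describe 10 or 8 group means made by 1 method, at unknown depth, and carry no p.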

How the data were processed

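Per the labels' protocols, whole-cell RNA was selected for polyA tails, prepared with TruSeq chemistry and amplified with another polymerase in the final PCR. Gene levels are TPM as deposited by the authors. bcl2fastq 2.19, kallisto, Bowtie and bedtools are listed, with no roles, per the submitters' processing notes, and neither index nor build is named in the sources used here. The table had 60612 rows, 6 of them plasmid sequences left out of the tests, and every library summed to 1000000 TPM. 0 value columns were left unmatched. The 12 nuclear libraries were not used here.

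Genes with a mean of at least 1 TPM (14426) were tested as log2(TPM + 1) with limma 3.58.1 in R 4.3.3 (trend and robust eBayes, two-sided, Benjamini-Hochberg over all genes tested, threshold 0.05). RPL3 came from 1 fit of 30 libraries in 10 groups and RPL3L from 1 fit of the 24 construct libraries. A fold change on this scale understates changes of low genes. Sums, shares and ratios were tested by exact permutation of libraries, and relations over line means by exact permutation of pairings. The fit was tested on simulated data. Library kinds came from a principal component of pseudogene levels. Sequences came from GENCODE 29, aligned with Biopython 1.88. Values and figures were made in Python 3.11.15 (matplotlib 3.10.9, scipy 1.17.1, pandas 2.3.3, numpy 2.4.6).

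The members, the related gene lists and the split by library kind were chosen with earlier results of these data known. Named genes were the members, plasmid rows, RPL3 pseudogenes and genes in the RPL3 span, all genes of lists of up to 7, the 4 largest called changes of longer lists, and the 5 most alike and 3 most opposite genes by Pearson's r. Alternatives were another pseudocount, no filter, 2 scalings, the kind term, first-kind libraries only, a replicate term, 2-group fits and leaving out each library. Replicates with the same number did not deviate together as a rule (median r -0.00311), with library kind not removed. The numbers were not used as pairs.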

Additional observations from a re-analysis of the deposited data

Results flagged for a closer look

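shRPL3 replicate 3 carried sequence of a plasmid its label does not name. Its EBFP2 row was 434 TPM and its rtTA3 row 428 TPM, with RPL3L at 121 TPM. The EBFP2 row was 0 in the other 2 shRPL3 libraries and in all 3 shScramble libraries, and the rtTA3 row was 0 there apart from 0.217 TPM in shRPL3 replicate 1. The ratio of RPL3L to EBFP2 in that library, 0.28, lies within the 0.251 to 0.314 of first-kind construct libraries. Where these reads came from was not tested.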

How the results depend on the processing

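RPL3 in shRPL3 against shScramble was -1.55 on the log2 scale with the replicate block as well, and the block changed no call in 25 RPL3 and 8 RPL3L comparisons. Same-numbered libraries of different groups did not deviate together as a rule (r from -0.56 to 0.505 over 135 pairs, median -0.00311, 10 pairs over 0.1). Library kind was not removed for this, so the check cannot settle a pairing by number. A pseudocount of 0.1 and RPL3P4 added by length, an alternative chosen after seeing the data, changed no call of RPL3 in the same 25 comparisons. The 8 lower calls of RPL3 against shScramble held under each setting tried but 1, T189M with no filter on low values.

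With library kind as a term, RPL3 moved to 0.06 in R161W against shScramble and turned sign. Against shRPL3 it was 0.36 in RPL3L-WT (sign turned), and 0.33 in P291L, 0.42 in G27D, 0.38 in D308N and 0.45 in R343W, which then passed. Against RPL3L-WT it was -0.02 in P291L and -0.27 in D308V (both turned) and 0.09 in R343W (lost). D308N against D308V passed at 0.29. RPL3L against RPL3L-WT then passed at 0.22 in G27D, -0.18 in R161W, -0.38 in T189M, -0.38 in D308V and -0.50 in R343W.

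With first-kind libraries only, RPL3 was 0.05 in R161W against shScramble (turned). Against shRPL3 it was 0.33 in RPL3L-WT (turned), 0.33 in P291L, 0.44 in G27D, 0.38 in D308N and 0.45 in R343W. Against RPL3L-WT it was -0.24 in D308V (turned) and 0.12 in R343W (lost), and D308N against D308V passed at 0.29. RPL3L against RPL3L-WT was -0.24 in R161W, -0.41 in D308V and -0.54 in R343W. The sum was 2901 TPM higher in RPL3L-WT and 2730 in T189M than in shScramble, and 3895 and 3724 higher than in shRPL3. Against RPL3L-WT the sum moved to 498 TPM in P291L, 1340 in D308N, -1048 in D308V and -1119 in R343W. The share moved to 1.5 percentage points in P291L, 3.1 in D308N, -1.6 in D308V and -6.74 in R343W. RPL3L over EBFP2 differed by -0.00483 in P291L, -0.00696 in D308N, 0.00288 in D308V and 0.0114 in R343W. RPL3L and EBFP2 correlated at 0.99. RPL3L-WT has 1 library of the first kind.

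Median-ratio scaling put RPL3 against shRPL3 at 0.15 in RPL3L-WT (turned), 0.45 in P291L, 0.44 in D308N and 0.51 in R343W (now past), and R343W against RPL3L-WT at 0.36 (lost). RPL3L against RPL3L-WT then passed at 0.34 in P291L, -0.44 in T189M, -0.29 in D308V and -0.43 in R343W. The sum of P291L was 3575 TPM above shScramble and 4507 above shRPL3. Scaling by large-subunit genes put RPL3 against shRPL3 at 0.28 in RPL3L-WT (turned), 0.47 in P291L, 0.31 in G27D, 0.40 in D308N and 0.54 in R343W, and against RPL3L-WT at -0.15 in D308V (turned) and 0.26 in R343W (lost). RPL3L was -0.47 in D308V and -0.53 in R343W.

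With no filter, RPL3 lost its calls in T189M against shScramble (-0.77), shRPL3 (0.78) and RPL3L-WT (0.85) and in R343W against RPL3L-WT (0.52). RPL3L lost D308N against RPL3L-WT (0.69) and D308V (0.84), as it did in a fit on all 10 groups (0.69 and 0.84). Fits on the 2 groups compared passed RPL3 against shRPL3 in P291L (0.33), D308N (0.38) and R343W (0.45), and D308N against D308V (0.29). They lost R161W (1.47), T189M (0.85) and R343W (0.52) against RPL3L-WT. The causes were not tested. Taking RPL3L as coding length only, also chosen after seeing the data, put its share at 79.2% in R161W, 82.5% in T189M, 86.5% in R343W, 89.9% in D308V, 91.9% in P291L, 92% in G27D, 92.9% in D308N and 91.7% in RPL3L-WT. The sum was then 3.4 times that of shScramble in T189M, 3.45 in R343W, 3.61 in D308V, 4.37 in R161W, 4.96 in G27D, 5.32 in P291L, 6.27 in D308N and 3.96 in RPL3L-WT.

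Leaving out each library in turn gave RPL3 ranges of -0.28 to 0.05 in R161W against shScramble and -0.28 to 0.03 in RPL3L-WT against shRPL3. Against RPL3L-WT they were 0.3 to 0.61 in P291L, 0.64 to 1.06 in T189M, 0.34 to 0.65 in D308N and 0.41 to 0.72 in R343W. P291L and D308N passed without RPL3L-WT replicate 3. For RPL3L against RPL3L-WT they were 0.35 to 0.57 in P291L, 0.25 to 0.47 in G27D, -0.16 to 0.07 in R161W and -0.54 to -0.25 in T189M. P291L and G27D passed without RPL3L-WT replicate 3, and T189M without its replicate 3. Depth is unknown, so no limit of detection can be given.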
